A study of Mus musculus with 9 samples.

Results

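The proteasome subunit genes were examined as a group in growing mouse oocytes with an XX, XO or XY sex chromosome complement. The members were the autosomal genes, on chromosomes 1 to 19 of the table, whose symbol is Psma, Psmb, Psmc, Psmd, Psme, Psmf or Psmg followed by a number, which gave 46 of 28051 genes. A further gene with such a symbol, Psmd10, lies on the X chromosome and was not a member. Psmb9 and Psme1, which also carry such symbols, were not analysed here.

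Each library was made from a pool of 30 growing oocytes (10 of 50 to 55 µm and 20 of 55 to 60 µm in diameter) taken from females at 18 days after birth, with 3 pools per genotype and 9 in all, of strain C57BL/6 by the labels. XY females had inherited the Y chromosome of B6.YTIR males, a Y from a different mouse subspecies with which XY animals on the B6 background can develop ovaries, and the XX oocytes came from their littermates. XO females were daughters of Paf carrier males on a C3H/HeSnJ background backcrossed to B6. The XO group thus differed from the XX and XY groups in parentage. It also differed from the XX group in X chromosome number and from the XY group in lacking a Y chromosome. In each comparison with XO, parentage and sex chromosomes cannot be told apart. RNA was counted by Smart-seq3, in which a molecular identifier (UMI) at the 5′ end marks each captured molecule, so a transcript is counted once whatever its length; since oocytes were pooled, fewer transcripts per oocyte and fewer oocytes with a transcript cannot be told apart.

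The proteasome is the main protease of the cytoplasm and nucleus for proteins tagged with ubiquitin. Its 20S core is a barrel of stacked rings of alpha subunits (Psma), which gate the entrance, and beta subunits (Psmb), of which Psmb5, Psmb6 and Psmb7 carry the catalytic sites. The 19S regulatory particle caps the barrel, with ATPases (Psmc) that unfold the substrate and other subunits (Psmd) that bind ubiquitin, hold the lid together or remove the tag. Psme genes encode alternative caps, Psmf1 an inhibitor and Psmg genes chaperones of core assembly. Oocytes need the proteasome for the meiotic divisions and, after fertilization, to clear maternal proteins.

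Proteasome genes are known targets of the factor encoded by Nfe2l1, which binds antioxidant response elements, and many housekeeping promoters hold CCAAT boxes or ETS sites. RefSeq promoters of build GRCm38.p6, 250 bases before and 50 after a gene's start, were at hand for 38 of the 46 members, with 41 starts. On either strand, TGACNNNGC, the core of the antioxidant response element, was in 6 of these 41 windows (14.6%). It was in 12.4% of all 32851 windows and in 14.1% of those of the genes tested below. CCAAT was in 12 (29.3%, against 37.4% of all windows and 38.7% of those of the genes tested below). CCGGAAG, an ETS site, was in 15 (36.6%, against 8.86% of all windows and 16.8% of those of the genes tested below). These matches are descriptions of the letters in the windows. The 250 bases before the start are printed 5′ to 3′ for the most abundant member, Psma2, for the catalytic subunit genes Psmb5 and Psmb6, and for Psmd2, a base subunit gene. Psmb5, Psmb6 and Psmd2 were called between genotypes in the main fit below, without passing adjustment there. Capitals mark a CCAAT box in Psma2 (chr13:14612992-14613241, plus strand), an antioxidant response element in Psmb5 (chr14:54617996-54618245, minus strand) and in Psmb6 (chr11:70525107-70525356, plus strand), and an ETS site, read on the opposite strand, in Psmd2 (chr16:20651402-20651651, plus strand). The element of Psmb6 ended at the last base before the RefSeq start. The bases after that start were not found in a Gencode protein-coding transcript of Psmb6, so this position is less sure. None of these motifs was found in the windows of Psmf1 and Psmg4, 2 members described below.
Psma2: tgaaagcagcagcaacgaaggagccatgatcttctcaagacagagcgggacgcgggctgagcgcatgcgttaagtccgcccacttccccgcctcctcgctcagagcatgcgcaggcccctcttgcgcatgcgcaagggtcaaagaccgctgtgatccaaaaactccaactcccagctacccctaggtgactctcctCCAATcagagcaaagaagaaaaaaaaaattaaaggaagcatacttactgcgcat
Psmb5: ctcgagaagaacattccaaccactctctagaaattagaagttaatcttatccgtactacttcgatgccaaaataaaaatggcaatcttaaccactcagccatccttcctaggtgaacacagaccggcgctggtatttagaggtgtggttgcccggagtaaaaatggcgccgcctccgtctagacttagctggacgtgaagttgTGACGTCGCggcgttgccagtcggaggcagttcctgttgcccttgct
Psmb6: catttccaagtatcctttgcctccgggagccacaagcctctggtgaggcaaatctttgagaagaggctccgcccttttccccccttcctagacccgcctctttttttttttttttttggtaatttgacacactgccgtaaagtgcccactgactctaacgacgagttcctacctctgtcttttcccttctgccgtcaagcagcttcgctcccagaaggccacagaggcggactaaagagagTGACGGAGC
Psmd2: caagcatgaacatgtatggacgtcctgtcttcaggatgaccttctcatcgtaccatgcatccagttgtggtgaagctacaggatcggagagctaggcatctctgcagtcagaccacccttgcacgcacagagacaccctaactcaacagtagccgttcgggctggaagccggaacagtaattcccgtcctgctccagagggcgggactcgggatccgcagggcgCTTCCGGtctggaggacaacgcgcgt

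The libraries held 2130145 to 3157338 gene UMIs. Levels are given as the authors' normalized CPM, in which a gene's UMIs were divided by the library total and by a TMM factor of the ERCC spike-ins, synthetic RNAs added in fixed amount. This factor compares the spike-ins with each other after their own total is removed, so it does not scale a library to the amount added. Spike-ins held 0.204% (XX3) to 0.862% (XY1) of UMIs, and XX3 had the highest factor, 1.25. One UMI was worth 0.302 to 0.565 normalized CPM, and a count of 0 allows up to 3 UMIs, 0.906 to 1.69 normalized CPM by library, for counting error only. Of the oocyte markers, all 13 were measured and tested, with a summed level of 28243 to 31194 in XX, 19097 to 60228 in XO and 20420 to 29918 in XY pools. Granulosa cell markers, 10 of 14 measured, summed to 48.0 to 66.7, 55.9 to 67.2 and 56.6 to 92.4, theca and stroma markers (6 of 10 measured) to at most 8.55 in any pool, and immune markers (7 of 10) to 8.05 to 15.2, 2.07 to 23.7 and 3.72 to 14.2. Every marker measured had at least 1 UMI, and the defining markers Amh, Foxl2 and Ptprc were not analysed here. Pool XO1 stood apart from XO2 and XO3, with a summed oocyte marker level of 19097 against 42695 and 60228. XO1 lay near XY1, at 20420, while XO2 and XO3 lay above every XX and XY pool. In the paper's clustering XO2 was the XO replicate less like its other replicates. The results below are given with and without XO1, which was picked by its values in these data. Endothelial and blood markers (4 of 8 measured), mostly Pecam1, summed to 26.6 to 58.5 in XX and 37.6 to 69.4 in XY, and followed the same split in XO, at 20.7 in XO1 and 115 and 146 in XO2 and XO3, and their part in the results was not tested. Of the 13 oocyte markers, 5 were called lower in XX than in XO by the test described below (16.7% of all tested genes). In XY, 6 were called lower than in XO (8.24% of all tested genes). The X-linked Bmp15 was also called higher in XX than in XY (1.41% of all tested genes).

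Transcript levels of the members ran from Psma2, at a mean of 1332 normalized CPM over the 9 pools, to Psmb10, with a single UMI in all. Members together held 0.525 to 0.550% of gene UMIs in XX pools, 0.385 to 0.482% in XO pools and 0.503 to 0.547% in XY pools. Of the 46 members, 38 passed the filter on low counts, among 10993 genes tested in all. The 3 most abundant, Psma2, Psmb7 and Psmc6, made up 35.6 to 60.2% of all member UMIs, the smallest share in XO3 and the largest in XX1.

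**Figure D1:**
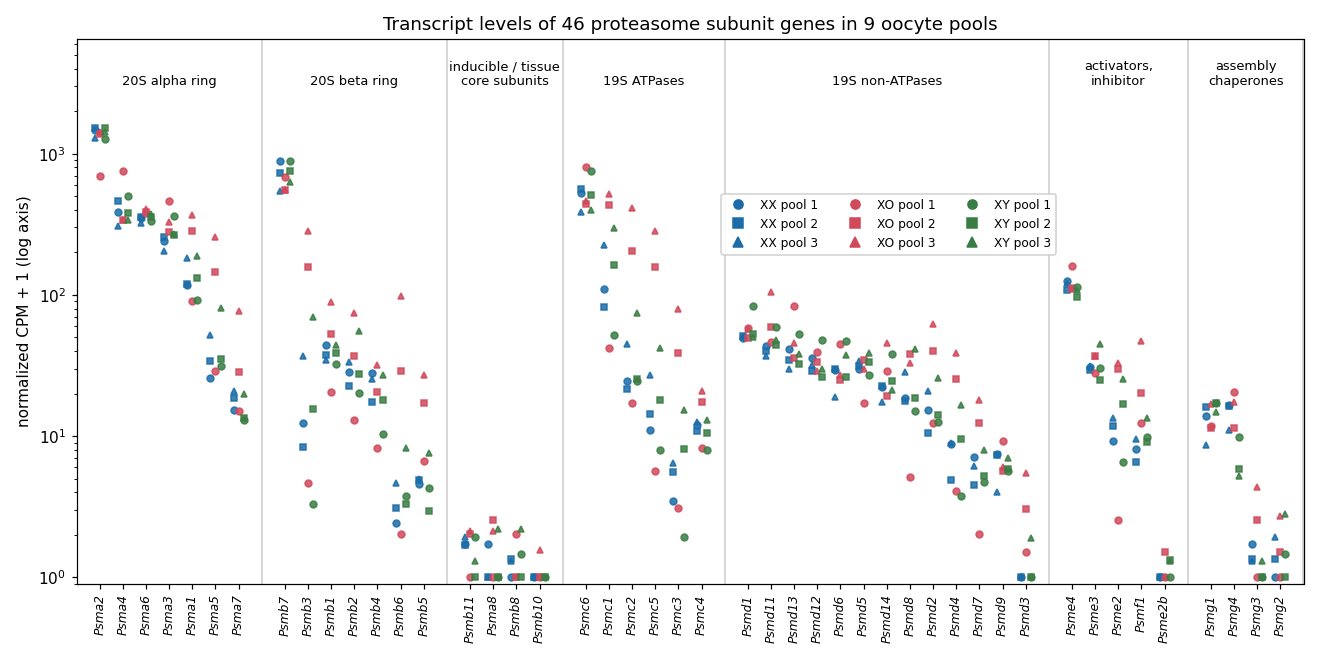
Normalized CPM plus 1, on a log axis, of all 46 members in each of the 9 pools, grouped by role and ordered by mean level within a role; colours mark the genotype and symbols the pool. Psma2, Psmb7 and Psmc6 stood highest at means of 1332, 692 and 537, and the inducible core subunits lay near 0 in every pool.

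In the alpha ring, whose 7 genes encode proteins present in equal number in the particle, mean levels ran from 23.5 for Psma7 to 1332 for Psma2, a 56.6-fold span, and all 7 passed the filter. Psma2 stood at 1471, 1509 and 1285 in XX, 697, 1375 and 1423 in XO, and 1278, 1526 and 1424 in XY, in the order of pools 1, 2 and 3. XO1 lay below all 8 other pools, and the 3 genotypes overlapped. Psma6 varied least between XO pools, at 376, 388 and 401, with 348, 354 and 320.5 in XX and 332, 352 and 372 in XY. In mean level Psma2 was followed by Psma4 (423), Psma6 (360.5), Psma3 (296), Psma1 (174) and Psma5 (75.4).

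In the beta ring the span was 87.9-fold, from Psmb5 at 7.88 to Psmb7 at 692. The catalytic subunit genes thus lay at both ends of the ring's range. Psmb7, the trypsin-like subunit, stood at 884, 731 and 544 in XX, 685, 552 and 556 in XO, and 891, 759 and 631 in XY. Psmb5, the chymotrypsin-like subunit, stood at 3.56, 3.85 and 3.96 in XX, 5.70, 16.0 and 26.0 in XO, and 3.25, 1.95 and 6.64 in XY, on 6 to 46 UMIs per pool. Psmb6, the caspase-like subunit, stood at 1.42, 2.10 and 3.66 in XX, 1.04, 27.9 and 96.5 in XO, and 2.79, 2.28 and 7.24 in XY, on 2 to 171 UMIs. The levels of Psmb7 overlapped between the 3 genotypes, while Psmb5 and Psmb6 were highest in XO2 and XO3.

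The genes that replace core subunits in particular tissues were near the limit of detection. Psmb8, the interferon-inducible counterpart of Psmb5, had 9 UMIs over the 9 pools, and Psmb10, the counterpart of Psmb7, had 1 UMI, in XO3. Psma8, the testis counterpart of Psma7, had 11 UMIs, with 2, 0 and 0 in XX, 0, 3 and 2 in XO and 0, 0 and 4 in XY pools, against 26 to 134 UMIs of Psma7 per pool. Psmb11, known from thymic epithelium, had 14 UMIs. None of the 4 passed the filter. Their levels were at or about the value that a count of 0 allows, so differences between genotypes were not detectable at this depth.

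Among the ATPases of the regulatory particle, Psmc6 was the most abundant, at 525, 559.9 and 384 in XX, 806, 436 and 460.1 in XO, and 747, 511 and 400.3 in XY. Its XO1 and XY1 levels were the highest and XX3 the lowest. Psmc1 (212), Psmc2 (92.9), Psmc5 (62.0), Psmc3 (17.0) and Psmc4 (11.6) followed, a 46.2-fold span within a ring whose 6 subunits are present once each. All 13 Psmd genes are grouped here, by symbol, as other subunits of the regulatory particle, although Psmd9 encodes an assembly chaperone. Counts of chaperones by role below cover the Psmg genes only. Of the 13, 12 passed the filter, with Psmd1, a scaffold subunit, highest at 54.9. The means of 9 other tested genes of this group lay between 12.4 (Psmd4) and 52.7 (Psmd11). The 2 lowest tested members of all, below Psmb5, were Psmd9, an assembly chaperone of the ATPase ring, at 6.41, 6.30 and 3.05 in XX, 8.28, 4.65 and 5.08 in XO, and 4.65, 4.88 and 6.04 in XY, and Psmd7, a lid subunit, at 6.06, 3.50 and 5.18 in XX, 1.04, 11.4 and 16.9 in XO, and 3.72, 4.23 and 6.94 in XY. Psmd9 overlapped between all genotypes, and Psmd7 was lowest in XO1 and highest in XO3.

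Psmd3, which encodes a lid subunit found in every 26S particle, did not pass the filter. It had no UMI in any XX pool, 1, 4 and 8 in XO and 0, 0 and 3 in XY pools, 16 in all, and only counting error is covered by the limit given above. Adrm1, a ubiquitin receptor of the same particle outside the symbols used, did not pass the filter either, at 1.42, 0 and 0.609 in XX, 2.59, 2.58 and 1.13 in XO, and 0.465, 1.30 and 1.81 in XY. Sem1, a small lid subunit, stood at 14.2, 9.45 and 14.3 in XX, 19.7, 27.4 and 36.7 in XO, and 19.1, 10.1 and 18.4 in XY. Pomp, the maturation factor of the core, stood at 269.6, 249 and 222 in XX, 132, 274 and 272 in XO, and 222, 255 and 277 in XY, lowest in XO1.

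Psme4, which encodes the large activator PA200, was the highest of the alternative caps, at a mean of 116, before Psme3 (PA28 gamma) at 31.6. Psme2, a subunit of the interferon-inducible activator PA28, stood at 8.19, 10.9 and 12.5 in XX, 1.55, 29.0 and 32.2 in XO, and 5.58, 16.0 and 24.5 in XY, lowest in XO1 on 3 UMIs. Psme2b, a close copy of Psme2, had 3 UMIs, and reads could be split between the copies. Of the assembly chaperones, Psmg1 (13.2) and Psmg4 (11.7) passed the filter, and Psmg2 and Psmg3, the partners of Psmg1 and Psmg4, had 15 and 14 UMIs and did not.

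The first comparison asked how a single X chromosome compares with 2. Of the 38 tested members, 9 were lower in XX than in XO (23.7%) and none was higher in edgeR's quasi-likelihood test at an unadjusted p below 0.05, the threshold of the study, where 16.7% of all tested genes were lower and 1.4% were higher. At this threshold, with limma and surrogate variables, the paper reports the other direction, with many autosomal genes lower in XO than in XX and in XY. The 9 were Psma5 of the alpha ring, Psmb5 and Psmb6 of the beta ring, the ATPases Psmc2, Psmc3 and Psmc5, Psmd2 and Psmd11 of the regulatory particle, and the inhibitor Psmf1. By role they were 1 of 7 in the alpha ring, 2 of 7 in the beta ring, 3 of 6 ATPases, 2 of 12 other subunits of the regulatory particle, 1 of 4 activators and inhibitor and 0 of 2 chaperones. The median log2 fold changes of these groups were -0.60, -0.57, -2.04, -0.46, -0.57 and -0.12 in that order. In this fit no member and no other gene passed Benjamini-Hochberg adjustment over all 10993 genes. In other fits of edgeR, 13 members passed it with 1 surrogate variable (25.8% of all genes) and 11 of 46 without the filter on low counts (5.73%), while with the replicate block or TMM factors of the genes no member and 7 or 2 genes did. In DESeq2, 1 member passed it with its own size factors (1.62% of all genes) and 4 with the ERCC factors (4.25%). The median log2 fold change of the tested members, XX less XO, was -0.59, beside -0.46 for all tested genes, and with ERCC totals as sample size both medians turned positive, to 0.29 and 0.42. Relative to all genes, the members' median was -0.13 with either scaling and -0.05 with TMM factors of the genes.

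**Figure D2:**
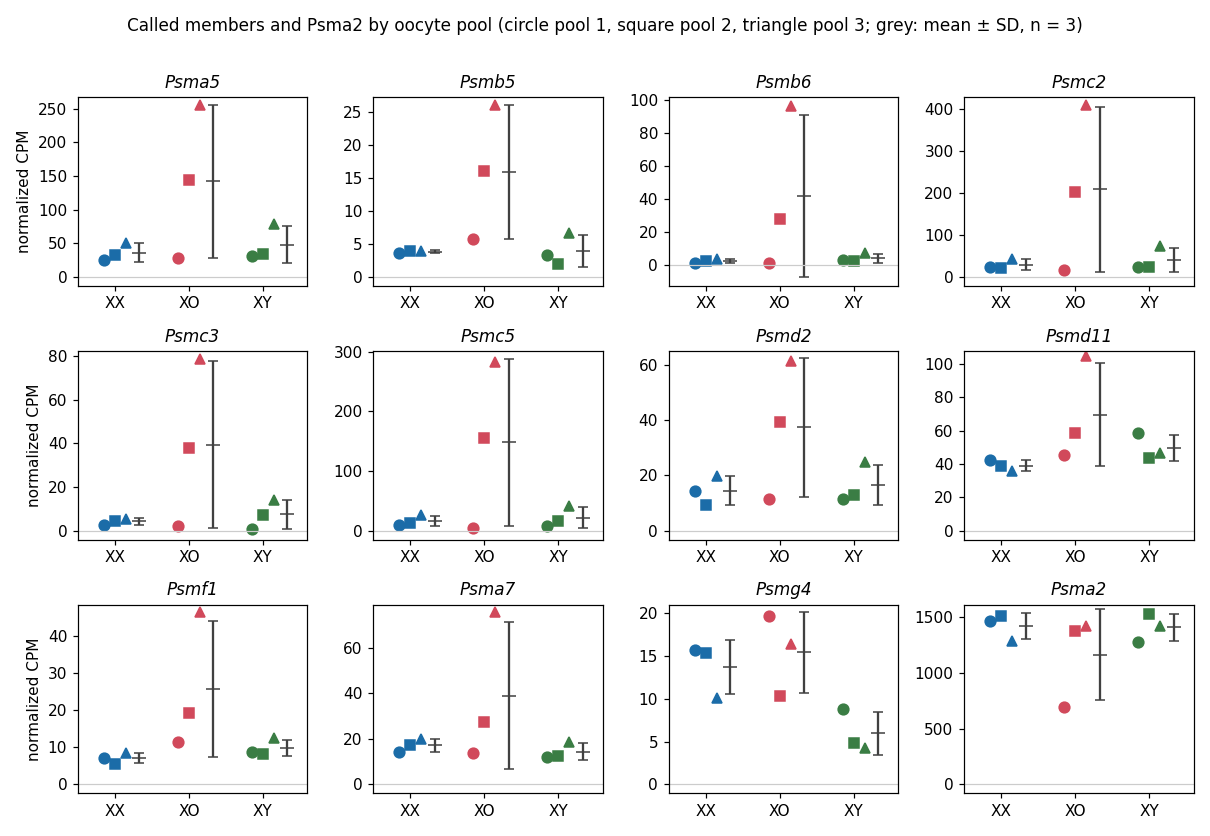
Normalized CPM by pool, on a linear axis, of the 11 members called in any comparison and, last, of Psma2; coloured points are pools and the grey bars the mean ± SD of 3 pools. XO2 and XO3 lay above XO1 in every panel but that of Psmg4, which was lowest in the 3 XY pools, at 4.23 to 8.83.

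Psmb6 had the largest difference. Its mean was 2.39 ± 1.14 in XX and 41.8 ± 49.2 in XO (SD, n = 3), with the values by pool given above. XO1 lay below all 3 XX pools and XO2 and XO3 far above them, so the groups overlapped. The log2 fold change was -4.08 ± 1.17 (SE) with an edgeR adjusted p of 0.203.

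In 5 of 38 tested members all 3 XO pools exceeded all 3 XX pools, beside 13.6% of all tested genes, namely the called Psmb5, Psmd11 and Psmf1 and also Psma3 and Psma6, which were not called. Psmb5 averaged 3.79 ± 0.206 in XX and 15.9 ± 10.1 in XO, a log2 fold change of -2.05 ± 0.59 (edgeR adjusted p = 0.203). Psmf1, the proteasome inhibitor PI31, stood at 7.12, 5.60 and 8.53 in XX, 11.4, 19.1 and 46.3 in XO, and 8.83, 8.14 and 12.4 in XY. Its XO pools were higher than its XX pools without overlap, and the XY pools overlapped both, with a log2 fold change of -1.84 ± 0.50 for XX less XO (edgeR adjusted p = 0.203), the smallest p of any member. Psmd11, a lid subunit, stood at 42.4, 38.9 and 35.6 in XX, 45.6, 58.4 and 104 in XO, and 58.6, 43.3 and 46.8 in XY (log2 fold change -0.83 ± 0.34 for XX less XO, edgeR adjusted p = 0.25). Both Psmb5 and Psmf1 kept the call when any 1 pool was left out, as did Psmb6, but Psmb5 and Psmf1 lost it with ERCC totals as sample size and Psmb6 in the batch-regressed values described below.

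The ATPase genes split into called and not called. Psmc2 stood at 23.5, 20.7 and 43.6 in XX, 16.1, 202 and 409 in XO, and 23.7, 24.4 and 73.0 in XY. Psmc3 stood at 2.49, 4.55 and 5.48 in XX, 2.07, 37.7 and 78.5 in XO, and 0.930, 7.16 and 14.2 in XY. Psmc5 stood at 9.97, 13.3 and 26.2 in XX, 4.66, 156 and 283 in XO, and 6.97, 16.9 and 40.8 in XY. In all of them XO1 lay below the XX pools, XO2 and XO3 lay above every XX and XY pool, and the groups overlapped. The log2 fold changes were -2.83 ± 0.94 for Psmc2, -3.21 ± 1.09 for Psmc3 and -3.16 ± 1.12 for Psmc5, and the edgeR adjusted p was 0.207 for Psmc2, 0.211 for Psmc3 and 0.22 for Psmc5. Psmc1, Psmc4 and Psmc6 were not called, at -1.24 ± 0.87, -0.42 ± 0.40 and -0.21 ± 0.38. The calls of Psmc2, Psmc3 and Psmc5 were lost without XX1 or without XO3, and that of Psmc5 also without XX2.

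Psma5, an alpha ring subunit, stood at 24.6, 32.9 and 50.9 in XX, 28.0, 144 and 255 in XO, and 30.2, 33.9 and 79.1 in XY, with XO1 among the XX pools and XO2 and XO3 above them (log2 fold change -1.97 ± 0.71, edgeR adjusted p = 0.223). Psmd2, a base subunit that binds ubiquitin carriers, averaged 14.5 ± 5.18 in XX and 37.4 ± 25.1 in XO (SD, n = 3), again with XO1, at 11.4, within the XX range (log2 fold change -1.36 ± 0.58, edgeR adjusted p = 0.264). The other 29 tested members ran from -3.02 for Psmb3, which did not pass the test (SE 1.38, edgeR adjusted p = 0.282), to 0.29 for Psma2 (edgeR adjusted p = 0.684). Psmb7, 0.27 ± 0.33, and Psmc6, -0.21 ± 0.38, the other abundant members, were not called either.

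**Figure D3:**
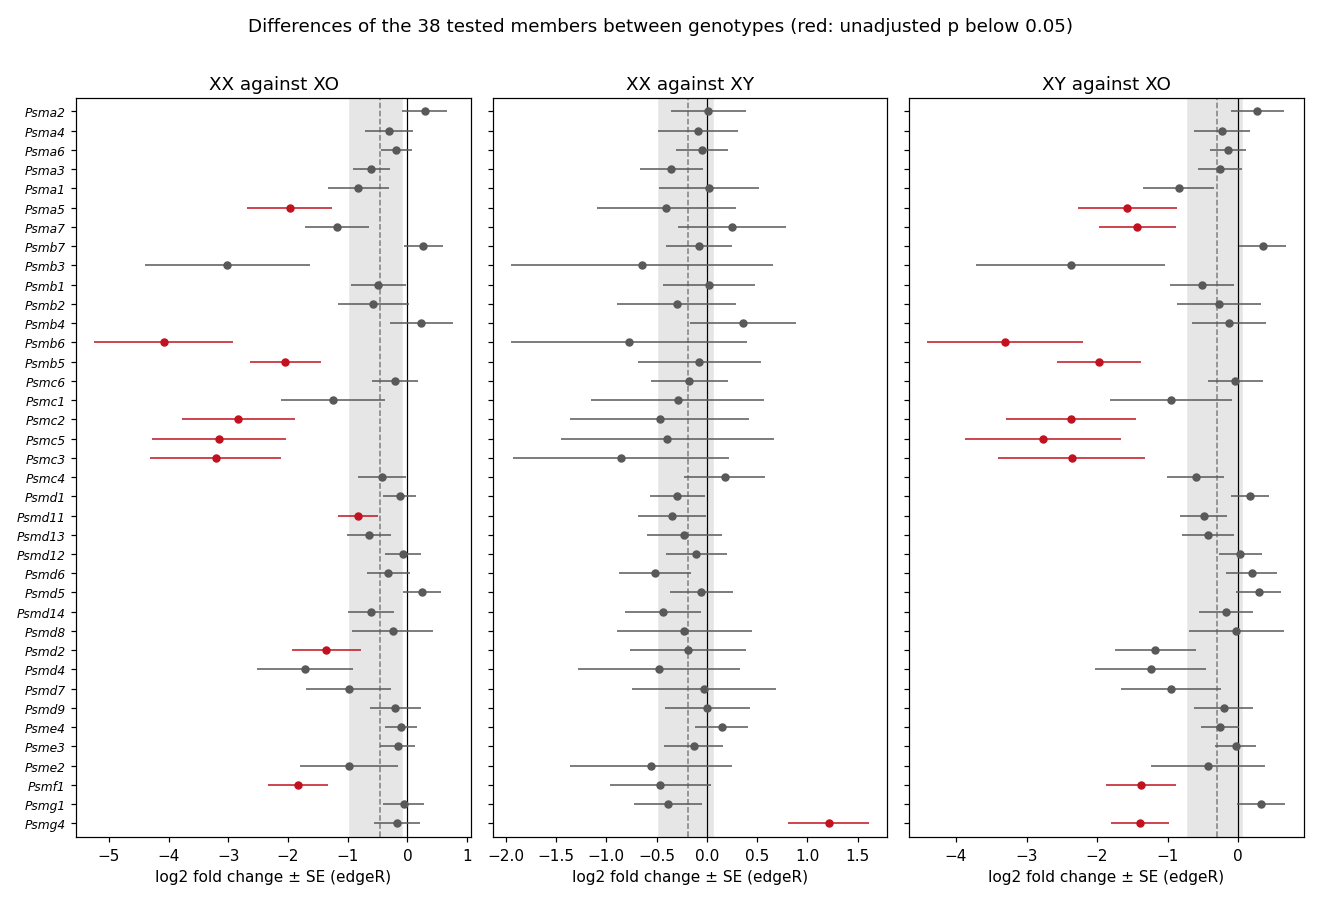
Log2 fold changes from edgeR with their standard errors for the 38 tested members in each comparison, ordered by role and level, with red for an unadjusted p below 0.05; the grey band and dashed line give the quartiles and median of all 10993 tested genes. The 9 called members of XX against XO and of XY against XO lay to the left of the dashed line, at medians of all genes of -0.46 and -0.30, and Psmg4, at 1.21, was the only member called in XX against XY.

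Without XO1, the remaining XO pools were 2 and 17 of 38 tested members were lower in XX (44.7%), beside 31.9% of all 11590 tested genes, and 15 members passed adjustment (22.7% of all genes). XO1 was set aside for its values and lay below XO2 and XO3 for most tested members, so this fit is no independent test. All 9 members called with the 9 pools were among the 17, with a log2 fold change of -4.63 ± 0.64 for Psmb6 (edgeR adjusted p = 0.00272) and -3.70 ± 0.62 for Psmc5 (edgeR adjusted p = 0.00384). The 8 further members were Psma1, Psma7, Psmb1, Psmb3, Psmc1, Psmd4, Psmd7 and Psme2. Without XO3, 3 members were called lower (7.89%), a share like that of all genes (7.95%). With each of the 9 pools left out in turn, the call of Psma5 was kept in 6 fits, that of Psmd11 in 3 and that of Psmd2 in 2.

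The count also moved with the processing. With ERCC totals as sample size, 1 member, Psmb6, was lower (0.482% of all genes), in XX against XO, and with 1 surrogate variable as covariate 17 were lower and 2 higher (32% and 6.1% of all genes). In the deposited batch-regressed log2 values, tested with limma, the direction turned: 14 members were higher in XX than in XO and 2, Psmb5 and Psmf1, were lower, beside 36.1% and 7.4% of all genes, and Psmc5 was at 0.20 in place of -3.16.

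The second comparison set XX against XY oocytes, which differ in carrying a second X or a Y chromosome. It called 1 of 38 tested members higher in XX (2.63%), beside 1.41% of all tested genes, and none lower, beside 4.39% of all genes. That member was Psmg4, which encodes an assembly chaperone of the alpha ring. Psmg4 stood at 15.7, 15.4 and 10.1 in XX, 19.7, 10.3 and 16.4 in XO, and 8.83, 4.88 and 4.23 in XY, on 14 to 44 UMIs per pool. All 3 XX pools and all 3 XO pools were above all 3 XY pools. The log2 fold change of XX less XY was 1.21 ± 0.40 (edgeR adjusted p = 0.636), and the call was lost without XY2 but not without XO1 or any other pool. Without being called, Psma3 and Psmd11 had all 3 XX pools below all 3 XY pools. Psma6, also not called, had all 3 XY pools below all 3 XO pools. The share of all tested genes without overlap was not counted for these comparisons.

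The median difference of the 38 tested members was -0.20 and that of all genes -0.19, and with TMM factors of the genes they were -0.0033 and -0.0053. By role, the medians were -0.05 in the alpha ring, -0.08 in the beta ring, -0.34 among the ATPases and -0.22 among the other subunits of the regulatory particle. The fold changes of members called in XX against XO were not past the threshold here, at -0.78 ± 1.18 for Psmb6, -0.39 ± 1.06 for Psmc5 and -0.46 ± 0.50 for Psmf1. With these standard errors, a lack of a call does not show that XX and XY levels were alike.

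The third comparison set XY against XO oocytes, which both have a single X chromosome. It shares its XO pools with the first, so the calls of both are not independent. Of the tested members, 9 were lower in XY than in XO (23.7%), beside 8.24% of all genes, and none was higher, beside 1.69%. They were Psma5, Psma7, Psmb5, Psmb6, Psmc2, Psmc3, Psmc5, Psmf1 and Psmg4, and no member passed adjustment over all genes in this fit or in DESeq2 (0.582% of all genes with either size factor), whereas 8 did in edgeR with the surrogate variable (13.3% of all genes) and 7 of 46 without the filter on low counts (2.79%). By role they were 2 of 7 in each core ring, 3 of 6 ATPases, 0 of 12 other subunits of the regulatory particle, 1 of 4 activators and inhibitor and 1 of 2 chaperones. The members' median was -0.43 beside -0.30 for all genes, -0.13 relative to them, and -0.07 relative to them with TMM factors of the genes.

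Psmg4 had the smallest p, with XY pools at 8.83, 4.88 and 4.23 and XO pools at 19.7, 10.3 and 16.4 and no overlap (log2 fold change -1.39 ± 0.41, edgeR adjusted p = 0.485). Psmb5 averaged 3.95 ± 2.42 in XY and 15.9 ± 10.1 in XO, with XO1 below XY3 (log2 fold change -1.97 ± 0.59, edgeR adjusted p = 0.485). Psma7 stood at 14.2, 17.5 and 19.8 in XX, 14.0, 27.4 and 75.6 in XO, and 12.1, 12.4 and 18.7 in XY, with XO2 and XO3 above all XY pools and XO1 inside the XY range (log2 fold change -1.43 ± 0.54, edgeR adjusted p = 0.485). Psmb6 differed by -3.30 ± 1.11 (edgeR adjusted p = 0.485), Psmf1 by -1.38 ± 0.49 (edgeR adjusted p = 0.485) and Psmc2 by -2.37 ± 0.92 (edgeR adjusted p = 0.485).

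Without XO1, 17 members were lower in XY than in XO, beside 24.2% of all genes, and 9 passed adjustment (10.5% of all genes). For the reason given above, this fit too is no independent test. Without XO3, 2 members were lower (2.35% of all genes), and without XY2, 2 were (1.65% of all genes). Psmb5 and Psmg4 kept the call in all 9 fits that left out a pool, Psmb6 in 7, Psmf1 in 6, Psma7 and Psmc2 in 4, Psmc5 in 3, and Psma5 and Psmc3 in 2. With the pool number as a block 11 were lower, beside 14.1% of all genes, the 9 and also Psmb3 and Psmd2. One member was lower with ERCC totals as sample size (0.664% of all genes), 14 were lower and 3 higher with the surrogate variable (20.7% and 7.71% of all genes), and 2 were lower and 13 higher in the batch-regressed values (5.53% and 37.5% of all genes).

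The pools of 1 genotype differed among themselves by more in XO than in XX or XY. The fold between the highest and the lowest pool had a median over the 38 tested members of 3.39 in XO, 1.52 in XX and 1.85 in XY, and over all tested genes of 2.64, 1.58 and 1.82. It passed 10 in XO for 9 members (12.3% of all tested genes), Psmb3, Psmb6, Psmc1, Psmc2, Psmc3, Psmc5, Psmd4, Psmd7 and Psme2, and in XY for Psmb3 and Psmc3 (2.3% of all tested genes). The widest fold in XO was 93.2, for Psmb6, and in XY 29.4, for Psmb3. The lowest pool held at most 3 UMIs for Psmb6, Psmd7 and Psme2 in XO and for Psmc3 in XY. The sizes of these folds are therefore uncertain. Psmb3, a structural subunit of the beta ring, stood at 11.4, 7.35 and 35.9 in XX, 3.62, 157 and 285 in XO, and 2.32, 14.6 and 68.2 in XY. It was lowest in XY1 and XO1 and highest in XO3.

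XO1 was the lowest XO pool for 25 tested members (65.8%, beside 52.9% of all tested genes) and the highest for 11 (28.9%, beside 37.4%). The 11 were Psma3, Psma4, Psmb7, Psmc6, Psmd1, Psmd6, Psmd9, Psmd12, Psmd13, Psme4 and Psmg4. On the log2 scale with a pseudocount of 1, the mean of XO2 and XO3 less XO1 ran from -1.15 for Psma4 to 5.52 for Psmb3, with a median of 1.26 beside 0.34 for all tested genes. Subunits of a single ring thus differed in opposite directions between XO pools, as Psmc6 and Psmc5 did.

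**Figure D4:**
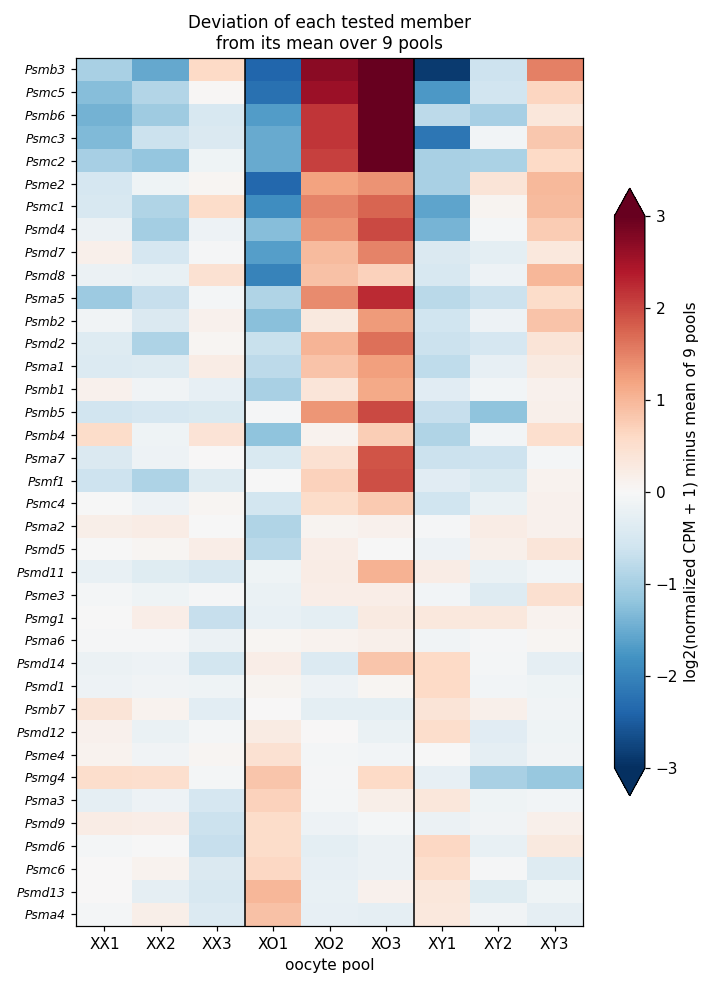
Deviation of each of the 38 tested members from its own mean over 9 pools, as log2(normalized CPM + 1), with red above and blue below the mean and genes ordered by the mean of XO2 and XO3 less XO1. Psmb3 at the top differed by 5.52 and Psma4 at the bottom by -1.15, and XY1 and XO1 were both low for the genes at the top.

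The base composition of the transcripts differed along the same order. The difference between XO pools had a Spearman correlation of 0.44 with the median G and C content of a gene's annotated protein-coding transcripts over the 38 tested members, and of 0.42 over 8801 tested protein-coding genes. Between XY pools it was 0.43 and 0.36, and between XX pools 0.19 and 0.11. Transcript length gave 0.10 over the members and -0.09 over all genes in XO. The 21 members over 1 higher in XO2 and XO3 had a median G and C content of 51.6%, and the 11 lower there 46.6%. These genes share their libraries, the values are a description, and the part of base composition in the differences was not tested.

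Psmd10, the X-linked gene that encodes gankyrin, an assembly chaperone of the ATPase ring, was no member and stood at 338, 354 and 248 in XX, 289, 140.1 and 132 in XO, and 299, 177 and 127 in XY. XX1 and XX2 were the highest pools and XO2, XO3 and XY3 the lowest, with a log2 fold change of 0.74 ± 0.43 for XX less XO (edgeR adjusted p = 0.362) and 0.64 ± 0.43 for XX less XY, neither of which passed the unadjusted threshold. Sem1 was lower in XX than in XO (log2 fold change -1.13 ± 0.37, edgeR adjusted p = 0.203). Pomp was not called in any comparison.

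Of 9 genes that control proteasome gene transcription, 8 were tested, and 3 were lower in XX than in XO, beside 16.7% of all tested genes. They were Nfya (log2 fold change -2.15 ± 0.82, edgeR adjusted p = 0.234), Ddi2 (-1.29 ± 0.49, edgeR adjusted p = 0.234) and Nfyc (-0.64 ± 0.26, edgeR adjusted p = 0.251). Nfya and Nfyc encode subunits of the factor that binds CCAAT boxes, and Ddi2 the protease that activates the product of Nfe2l1. Ddi2 stood at 17.1, 9.45 and 23.8 in XX, 20.2, 40.3 and 62.7 in XO, and 13.9, 18.2 and 28.7 in XY, again lowest among XO pools in XO1. Nfe2l1 did not pass the filter, on 71 UMIs over 9 pools.

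Ubb, a polyubiquitin gene that was called lower in XX and in XY than in XO, stood at 144, 149 and 273 in XX, 58.0, 3153 and 7009 in XO, and 114, 239 and 458 in XY. XO1 was the lowest of the 9 pools and XO2 and XO3 the highest, as in Psmc5. Of 11 shuttle factor and p97 genes, Ubqln4 was higher and Faf2 lower in XX than in XO (1.4% and 16.7% of all tested genes). Of 6 tested proteasome-bound deubiquitinase and ligase genes, Huwe1, on the X chromosome, was higher in XX than in XY (1.41% of all tested genes), at a log2 fold change of 0.74 ± 0.26 (edgeR adjusted p = 0.65).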

How the data were processed

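Transcripts were measured by Smart-seq3 in 9 pools of oocytes, 3 of each genotype. Reads had been mapped to mouse build GRCm38 with HISAT2, and the authors deposited counts of 5′ UMIs over exons, for 28052 genes and 79 ERCC spike-ins. They also deposited a signal, here called normalized CPM, for 28051 genes, which equals CPM of the UMIs divided by a TMM factor of the spike-ins, and log2 values from which batch had been regressed. Counts were tested with edgeR 4.0.16 (glmQLFit and glmQLFTest, two-sided, filterByExpr, spike-in factors, 1 mean per genotype over all 9 pools), and a gene was called at an unadjusted p below 0.05. The study used limma with surrogate variables, a fit not run here. Alternatives were edgeR with surrogate variables from sva 3.50.0, limma 3.58.1 on the batch-regressed values, DESeq2 1.42.0, other scalings, no filter, a replicate block and leaving out each pool. On simulated counts for 10993 genes, 47.5% of 2-fold and 97% of 4-fold changes between XX and XO were called, with 5.02% of unchanged genes. Counts were drawn independently and only XX was raised, so differences between pools that many genes share were absent. These rates need not hold for the comparisons above. Replicate numbers come from the labels. Same-numbered pools had deviations that correlated at 0.83, 0.28 and 0.77 between XO and XY, but at -0.45 for a pair of XX and XO pools and at -0.06 for a pair of XX and XY pools. XO2 was most like XY3, at 0.72. Whether the numbers pair the pools is thus not settled, so the main fit held no block and the block is given as an alternative. The study calls the pools of a genotype biological triplicates, without saying which animals gave each, and p-values measure the spread between pools. Base composition came from Gencode vM21 transcripts and promoters from RefSeq. Members given in every pool were those called with the 6 smallest p per comparison and direction, the 3 most and least abundant and paralog pairs; Psma5, Psma6, Psmb3, Psmd2 and Psmd11 were added after their values were seen. Members and lists were chosen with earlier results of these data known. Some genes of the ubiquitin pathway are not reported here.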

Additional observations from a re-analysis of the deposited data

How the results depend on the processing

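The number of members lower in XX than in XO was 9 (16.7% of all genes). In the alternatives that moved it by over 1.5 times, it was 1 with ERCC totals as sample size (0.482% of all genes). It was 14 without the filter on low counts (46 members tested, 3774 of all 28051 genes), 17 with surrogate variables (32%) and 2 in the batch-regressed values (7.4%). Members higher in XX were 1 with DESeq2's own size factors (447 of all 10993 genes), 2 with surrogate variables (6.1%) and 14 in the batch-regressed values (36.1%). The number lower in XY than in XO, 9, became 1 (0.664% of all genes), 15 (2440 of all 28051 genes), 14 (20.7%) and 2 (5.53%) under the same alternatives. Higher in XY were 3 under surrogate variables (7.71%) and 13 in the batch-regressed values (37.5%). Between XX and XY, 2 members were lower with surrogate variables (1911 of all 10993 genes) and 2 higher in the batch-regressed values (1123 of all 10993 genes). Leaving out 1 pool at a time gave 3 to 17 members lower in XX than in XO, 2 to 17 lower in XY than in XO, and 0 to 1 higher in XX than in XY. In the batch-regressed values the fold change changed sign for 22 of 38 members in XX less XO and for 23 in XY less XO, among them the called Psmd2 in the first and Psma5 in the second. Of the members given by rule that were called in either fit, XX less XO turned to 0.20 for Psmc5, 1.08 for Psmd7 and 1.49 for Psme2, and XY less XO to 0.0327 for Psmc2, 0.0134 for Psmc3, 0.26 for Psmc5, 0.96 for Psmd7 and 1.70 for Psme2. The causes were not tested. The members' median less that of all genes moved by less than its SD between single pools (0.38) under every alternative. That SD is larger than the value itself, -0.13 in XX less XO, so this does not show that the value was stable. In XX less XO its sign turned with the surrogate variable (0.04), in the batch-regressed values (0.04) and without XO3 (0.06). Without XO1 it was -0.30. With the replicate block, 10 members were lower in XX than in XO, Psma7 being added (2317 of all 10993 genes). There were 11 lower in XY than in XO (14.1%) and 1 higher in XX than in XY (258 of all 10993 genes). Of the 9 pools, 7 had deviations most like a pool of their own number, XX2 and XO2 being the exceptions. Differences in genes of a few UMIs were not detectable at this depth.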
